A study of Mus musculus with 36 samples.

Results

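Kidney RNA of mice given a protein-free diet was set directly against kidney RNA of mice given a fat-free diet, with no control array in the contrast. All 9 arrays whose labels name these diets for 3 days were taken, 5 of protein-free mice (TS49, TS50, TS51, TS52 and TS54) and 4 of fat-free mice (TS37, TS38, TS41 and TS42), of 36 arrays in the series. Every mouse was a male C57BL/6 animal of 10 to 12 weeks that ate a standard chow (SDS) for 7 days before the change of food and then ate ad libitum, and its kidney was frozen straight after the diet without any ischemia. Beside each value stands the level in the 5 Control mice, which ate a complete purified diet for the same 3 days. The study as a whole asks which short diets precede resistance of the kidney to ischemia-reperfusion injury, and this contrast places a diet that lacks protein beside a diet that lacks fat. The missing nutrient was replaced, so that the fat-free diet held more protein and the protein-free diet more carbohydrate than the Control diet, and the lack of a nutrient cannot be told apart from the surplus of the others. Food intake was not matched between the diets, mice of a diet could share a cage that the labels do not name, and the authors removed 1 fat-free array as an outlier before depositing the data. A whole kidney was measured, so fewer cells of a type and less RNA per cell cannot be told apart.

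The kidney reabsorbs amino acids, phosphate and sulfate in the proximal tubule, secretes organic anions there, and runs mainly on fatty acid oxidation. Dietary protein reaches its cells through amino acid sensors such as GCN2, which acts through the transcription factor ATF4, and mTOR, and through insulin and IGF1, which hold the FOXO transcription factors out of the nucleus. Dietary fat feeds the nuclear receptor PPARA, which drives fatty acid oxidation, while low sterol or fat intake releases SREBP factors, which drive lipid synthesis. Adult tubule cells divide rarely, so the messengers of the cell cycle are scarce in the kidney.

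The signals are log2 values from Affymetrix HT MG-430 PM arrays, on which a probe set is a group of probes for 1 transcript. Differences are log2 values of protein-free minus fat-free, fitted with limma over 45141 probe sets, and a differentially expressed probe set (DEPS) had to pass a 5% false discovery rate, taken over the whole array, and a 1.5-fold minimum. The rate is printed as limma's adjusted p. Array medians lay between 3.70 and 3.72, and the pairwise correlations of the 9 arrays lay between 0.990 and 0.995. The median SD of a probe set was 0.142 in the protein-free and 0.140 in the fat-free group.

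The 2 diets gave 109 DEPS, or 0.241% of all probe sets. Of these, 65 were higher in protein-free kidneys (0.144%) and 44 lower (0.0975%), by a median of 1.72-fold and 1.85-fold. The arrays of both diets did not overlap in 101 of the 109, against 3.74% of all probe sets. A single gene symbol was given for 76 DEPS of 71 genes, 37 higher and 34 lower. The other 33 DEPS had no single symbol and are given no gene name. At least a 2-fold difference was seen in 34 DEPS, 20 higher and 14 lower. In 5 DEPS both group means lay under the lowest array median, the range of dim signals. Leaving out fat-free mouse TS38 left 47 DEPS, leaving out TS42 or protein-free mouse TS52 left 72, and 41 DEPS of 24 genes passed whichever single array was left out.

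**Figure D1:**
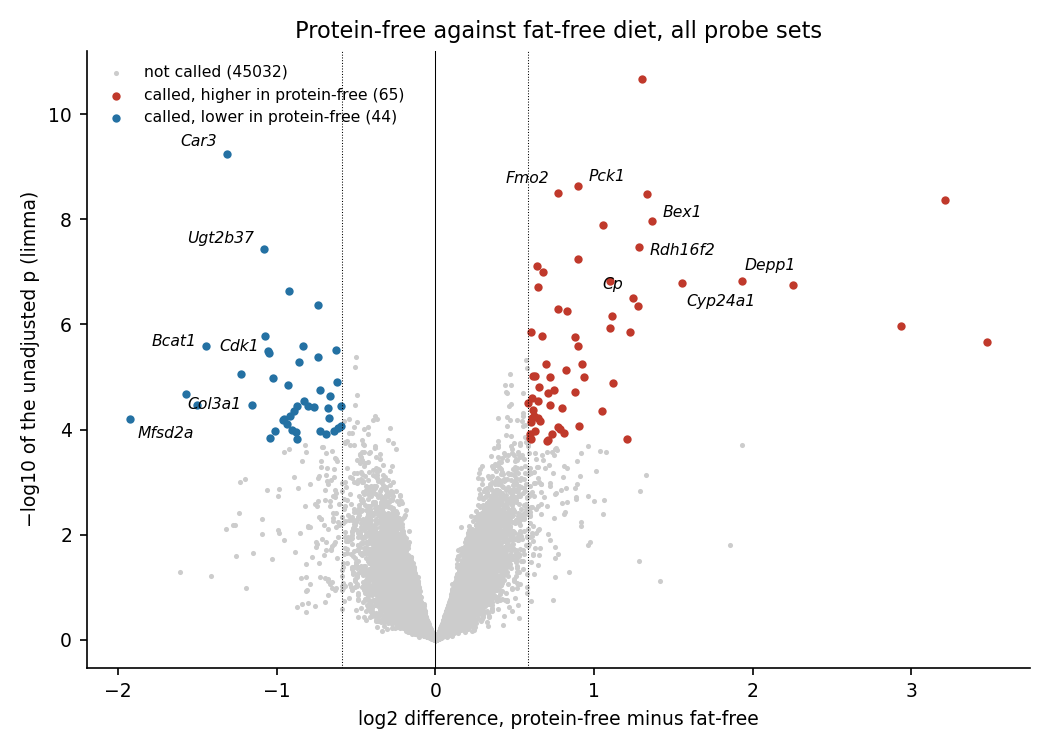
Each point is 1 of 45141 probe sets, placed by its log2 difference (protein-free minus fat-free, x axis) and by −log10 of limma's unadjusted p (y axis), with dotted lines at a fold change of 1.5. The 65 DEPS higher in protein-free kidneys reach 3.48 and the 44 lower reach -1.93, and the labels mark genes described in the text (for Cyp24a1 and Depp1 the probe set with the lowest p).

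The vitamin D catabolic enzyme gene Cyp24a1 had the largest difference of any DEPS with a single gene symbol. Its enzyme inactivates vitamin D hormone in the proximal tubule. The brighter of its probe sets read 10.86, 11.12, 9.89, 10.70 and 10.27 in the 5 protein-free kidneys and 8.01, 6.94, 7.63 and 7.95 in the 4 fat-free kidneys. The lowest protein-free value lay well above the highest fat-free one, and the Control mice, at 8.31 ± 0.54 (SD, n = 5), lay on the fat-free side. The difference was 2.94 (SE 0.47, adjusted p = 0.00188), or 7.66-fold, and the dimmer probe set gave 1.56 (SE 0.22, adjusted p = 0.000455). Of 17 measured genes of phosphate, vitamin D and calcium handling, Cyp24a1 was the 1 that rose, 0 fell and 16 did not pass (0.181% of all 17097 genes with a symbol were called higher and 0.181% lower, by their brightest probe set). Cyp27b1, which makes the active hormone, was dim and read 3.19 ± 0.14 against 4.01 ± 0.55 (-0.82, SE 0.42, adjusted p = 0.657), and the receptor gene Vdr read 9.95 ± 0.23 against 9.47 ± 0.26 (0.48, SE 0.15, adjusted p = 0.227). The list's median difference was -0.01, beside -0.01 over all genes.

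Genes listed as FOXO factors and their targets gave the most calls of any list, 4 beside 3 in the cell cycle list. The 4 include Cbx7, a Polycomb subunit, and the list was written with earlier results of these data known. Of 26 measured, 4 rose, 0 fell and 22 did not pass. The median difference was 0.20, and the lowest was -0.57, for Cdkn1a, which was not called. At an unadjusted p under 0.05, 11 were higher and 2 lower, beside 4.08% and 4.95% of all genes. Depp1, a gene that FOXO factors switch on during fasting, read 7.12, 7.64, 7.86, 8.33 and 7.77 in protein-free kidneys. It read 5.80, 5.63, 6.19 and 5.63 in fat-free kidneys and 5.51 ± 0.46 on Control. The groups were separated by almost a full log2 unit, with a difference of 1.93 (SE 0.27, adjusted p = 0.000455) and of 2.26 (SE 0.32) at its other probe set. Cited2, a transcriptional coregulator, rose from 8.58 ± 0.28 to 9.48 ± 0.26 (0.90, SE 0.15, adjusted p = 0.00329). Its dimmer probe set did not overlap between the diets and was not called (0.76, SE 0.22, adjusted p = 0.159).

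Txnip, an arrestin-like protein that binds thioredoxin and lowers glucose uptake, read 10.72, 11.13, 10.79, 11.03 and 10.85 in protein-free and 10.03, 9.98, 10.39 and 10.23 in fat-free kidneys. Its groups did not overlap (0.75, SE 0.14, adjusted p = 0.0126), and its call was lost without TS37 or TS38 (adjusted p = 0.0866 without TS38). A dimmer Txnip probe set overlapped between the diets and was not called (0.92, SE 0.31, adjusted p = 0.279). Cbx7, a Polycomb subunit kept in this list as written, rose from 6.21 ± 0.22 to 6.86 ± 0.11 (0.65, SE 0.09, adjusted p = 0.000498). Its other probe sets were dim and not called (-0.11, adjusted p = 0.9065, and 0.04, adjusted p = 0.973). Igfbp1, the insulin-suppressed binding protein of IGF, differed as much as Depp1 in size but missed the threshold. It read 7.67, 7.81, 7.17, 8.60 and 9.21 in protein-free and 5.53, 6.40, 6.22 and 6.49 in fat-free kidneys, which did not overlap (1.94, SE 0.45, adjusted p = 0.0539). Its Control arrays ran from 4.98 to 7.26. The messenger of the factor itself, Foxo3, read 9.36 ± 0.17 against 9.27 ± 0.15 (0.09, SE 0.11, adjusted p = 0.918), and Mtor 10.07 ± 0.28 against 10.19 ± 0.13 (-0.13, SE 0.20, adjusted p = 0.943). That is the brightest Mtor probe set. A dimmer one read 5.66 ± 0.18 against 6.12 ± 0.16, without overlap, and was not called (-0.46, SE 0.14, adjusted p = 0.1785). Another gave -0.23 (SE 0.17, adjusted p = 0.812). Of 16 genes of the insulin and IGF axis and 13 of the mTOR complexes, 0 were called, with 1 higher and 1 lower in the former and 1 higher in the latter at an unadjusted p under 0.05.

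The stretch before the start of Txnip is shown because it holds the core letters that FOXO factors bind, GTAAACA. It is taken from RefSeq on GRCm38.p6, chr3:96557807-96557956, + strand, and ends at the base before the start. Capitals mark GTAAACA, whose first base lies 121 bases before the start, and CCAAT, or the same letters on the opposite strand, at 137 and 102 bases.
Txnip: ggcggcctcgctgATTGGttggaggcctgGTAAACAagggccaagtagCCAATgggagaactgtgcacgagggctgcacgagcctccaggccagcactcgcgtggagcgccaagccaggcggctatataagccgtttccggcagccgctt
Either strand of the same 150 bases holds GTAAACA in 1.80% of 32851 RefSeq promoters. Those of Depp1, Cited2 and Cbx7 hold no GTAAACA in this window. Txnip was picked for its match, so the match cannot be judged by that rate, and it is no evidence of binding.

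Cdk1, Mki67 and Top2a, genes of dividing cells, fell in protein-free against fat-free kidneys. Of 39 measured genes of the cell cycle and DNA replication, 3 fell, 0 rose and 36 did not pass. The list's median difference was -0.17, 35 of the 39 differences were below 0, and 15 were lower and 1 higher at an unadjusted p under 0.05 (4.95% and 4.08% of all genes). Cdk1, the kinase that starts mitosis, read 3.12, 3.18, 3.05, 3.42 and 3.27 in protein-free and 4.06, 4.79, 4.09 and 4.08 in fat-free kidneys. All protein-free values lay below all fat-free ones, among which TS38 stood highest. The difference was -1.05 (SE 0.18, adjusted p = 0.00406), and it was -0.87 (adjusted p = 0.0420) without TS38. Control kidneys, at 4.51 ± 0.43, were on the fat-free side.

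Mki67, the proliferation marker Ki-67, read 3.51, 3.08, 3.25, 3.56 and 3.43 in protein-free and 4.46, 4.36, 4.25 and 4.24 in fat-free kidneys, again without overlap (-0.96, SE 0.20, adjusted p = 0.0277). Top2a, the topoisomerase that untangles replicated DNA, had 2.91 ± 0.11 against 3.63 ± 0.32 (-0.72, SE 0.16, adjusted p = 0.0374). The protein-free means of all 3 genes lay below the array medians, and on Control Mki67 read 4.69 ± 0.42 and Top2a 4.01 ± 0.35. The calls of Mki67 and Top2a were lost without any of 7 of the 9 arrays, with adjusted p up to 0.115 and 0.249, both without TS38, and Top2a was also lost after quantile normalization (adjusted p = 0.0517). Next in the list were the cyclin gene Ccna2 (-0.75, SE 0.23, adjusted p = 0.204), the nucleotide kinase gene Tk1 (-0.72, SE 0.18, adjusted p = 0.0917) and the ubiquitin ligase component Ube2c (-0.72, SE 0.17, adjusted p = 0.0551), which did not pass although their arrays did not overlap. The licensing factor Cdt1 went the other way, with 0.51 (adjusted p = 0.130). Rrm2, a subunit of ribonucleotide reductase, is counted by the brightest probe set that carries its symbol here (-0.57, SE 0.19, adjusted p = 0.275). The authors assign to Rrm2 a further probe set, which has no single symbol in the annotation used here and is not in the count. That probe set, picked out after its values were seen, read 4.70, 4.57, 4.31, 5.26 and 4.92 in protein-free and 5.84, 6.12, 5.53 and 5.61 in fat-free kidneys, without overlap, and was called (-1.02, SE 0.19, adjusted p = 0.00868; 0.0753 without TS38).

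Outside the lists, 5 more DEPS that were named after their values were seen concern chromatin or mitosis. H3c1, a replication-dependent histone gene, read 7.44, 7.69, 7.73, 7.55 and 7.95 in protein-free and 8.67, 8.53, 8.47 and 8.71 in fat-free kidneys (-0.92, SE 0.13, adjusted p = 0.000542). Its groups were far apart and its call held whichever array was left out. H3c14 (-0.88), H3c15 (-1.01) and H4c8 (-0.90), which are histone genes of the same kind, had adjusted p values of 0.0386, 0.0371 and 0.0361 and lost their calls without 6, 7 and 8 of the 9 arrays, with TS38 giving the highest adjusted p in each (0.208, 0.190 and 0.167). In a fit of the 9 arrays alone H3c14 (adjusted p = 0.0648) and H3c15 (0.0735) did not pass. Histone genes of a class are near-identical, so these probe sets can share targets. Pbk, a mitotic kinase, read 3.68 ± 0.14 against 4.57 ± 0.22 (-0.89, SE 0.18, adjusted p = 0.0221; 0.101 without TS37).

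The 150 bases before the starts of Cdk1, Mki67 and Top2a are shown because these are the 3 called genes of the list. Genes that peak in mitosis are known to carry a CHR element (TTTGAA) near CCAAT boxes. Capitals mark TTTGAA and CCAAT on either strand, and the sequences are from RefSeq on GRCm38.p6, all on the - strand and written 5′ to 3′ towards the start, at chr10:69352913-69353062, chr7:135716380-135716529 and chr11:99024190-99024339.
Cdk1: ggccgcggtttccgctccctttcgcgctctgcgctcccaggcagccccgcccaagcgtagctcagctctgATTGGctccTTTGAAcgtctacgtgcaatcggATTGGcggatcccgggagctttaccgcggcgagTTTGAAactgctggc
Mki67: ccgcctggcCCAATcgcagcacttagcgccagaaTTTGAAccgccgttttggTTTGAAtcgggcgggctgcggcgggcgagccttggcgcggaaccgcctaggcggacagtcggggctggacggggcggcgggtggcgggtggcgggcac
Top2a: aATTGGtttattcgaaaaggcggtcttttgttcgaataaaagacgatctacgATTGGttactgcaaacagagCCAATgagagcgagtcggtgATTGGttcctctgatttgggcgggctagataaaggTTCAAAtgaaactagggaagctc
All 3 hold both motifs. Among 32851 promoters, 9.07% hold TTTGAA, 24.5% hold CCAAT and 2.24% hold both in this window. A match of letters is a description and no evidence of binding.

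The matrix genes Col3a1 and Fn1 fell in protein-free kidneys. Of 28 measured genes of the extracellular matrix, 2 fell, 0 rose and 26 did not pass, with a median difference of -0.29 and 26 of 28 differences below 0. At an unadjusted p under 0.05, 11 were lower and 1 was higher (4.95% and 4.08% of all genes). Col3a1, a fibrillar collagen, read 8.67, 7.89, 7.78, 7.48 and 8.25 in protein-free and 9.27, 8.79, 9.40 and 9.21 in fat-free kidneys. The highest protein-free value, of TS49, lay just below the lowest fat-free value, of TS38, and Control read 9.18 ± 0.37. The difference was -1.15 (SE 0.23, adjusted p = 0.0195). A dimmer Col3a1 probe set overlapped between the diets and was not called (-0.31, SE 0.16, adjusted p = 0.633).

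Fn1, the matrix protein fibronectin, read 6.86, 6.47, 6.09, 5.89 and 6.55 in protein-free kidneys and between 7.13 and 7.24 in the fat-free ones (-0.80, SE 0.16, adjusted p = 0.0195). The protein-free mice varied more than the fat-free mice, with an SD of 0.38 against 0.05. The calls of Col3a1 and Fn1 were lost without 6 and 5 of the 9 arrays, with adjusted p up to 0.0681 (without TS52) and 0.0931 (without TS38), and Fn1 also in a fit of the 9 arrays alone (adjusted p = 0.0604). The collagen VI genes Col6a2 (-0.82, SE 0.19, adjusted p = 0.0537) and Col6a3 (-0.64, SE 0.16, adjusted p = 0.0951) did not overlap between the diets and did not pass. Markers of fibroblasts and mural cells had a summed level (the mean log2 signal of 6 genes) of 5.61 to 6.07 on protein-free and 5.87 to 6.01 on fat-free arrays, and 0 of the 6 were called.

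**Figure D2:**
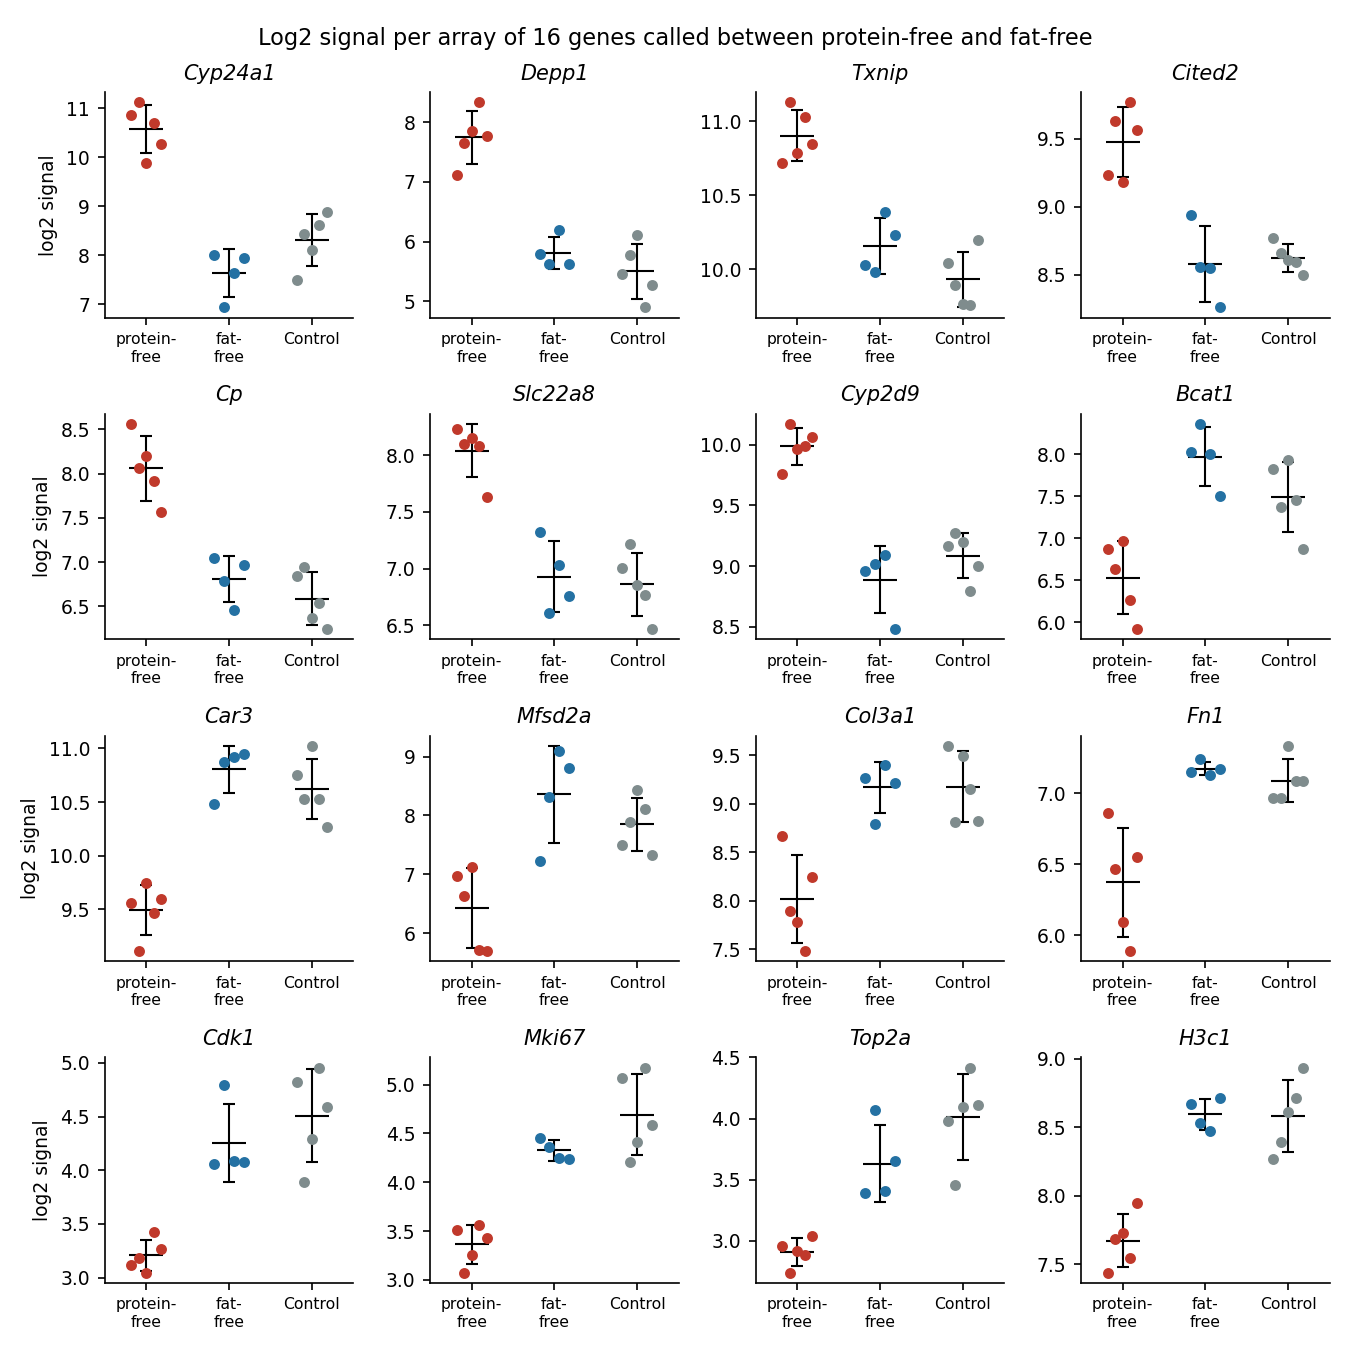
Log2 signal (y axes) on each array of 16 called genes in protein-free (red, n = 5), fat-free (blue, n = 4) and Control (grey, n = 5) kidneys, with a line at the mean and bars of 1 SD. Protein-free and fat-free arrays do not overlap in any panel, and the Control mean lies nearer to the fat-free than to the protein-free mean in each. The panels were picked among called genes, many of them named because their arrays did not overlap, so this describes these panels only.

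Cp and the transporter genes Abcb1b and Slco4c1 rose in protein-free kidneys. Cp, which encodes the copper-carrying ferroxidase ceruloplasmin, read 8.56, 8.06, 8.19, 7.92 and 7.56 in protein-free and 7.04, 6.78, 6.46 and 6.96 in fat-free kidneys (1.25, SE 0.18, adjusted p = 0.000697). No arrays overlapped, and Control read 6.59 ± 0.30. Of 18 genes of tubular injury and the acute phase, Cp was the 1 that rose and 17 did not pass. The injury markers Havcr1 (4.30 ± 0.32 against 4.12 ± 0.37, adjusted p = 0.959) and Lcn2 (3.13 ± 0.36 against 3.41 ± 0.42, adjusted p = 0.865) were among those that did not.

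Of 18 organic anion and cation transporters, 2 rose, 0 fell and 16 did not pass, with a median difference of 0.11. Abcb1b, a P-glycoprotein pump, read 5.07 ± 0.26 against 4.13 ± 0.30 (0.94, SE 0.17, adjusted p = 0.00835; 0.0534 without TS38). Slco4c1, an organic anion uptake carrier, rose from 7.77 ± 0.22 to 8.39 ± 0.15 (0.62, SE 0.13, adjusted p = 0.0264; 0.159 without TS38). Slc22a8, the basolateral organic anion transporter OAT3, was called at the dimmer of its probe sets, with 8.24, 8.10, 8.16, 8.09 and 7.63 in protein-free and 7.32, 6.61, 7.03 and 6.76 in fat-free kidneys. These did not overlap (1.11, SE 0.17, adjusted p = 0.00127), but the brighter probe set gave 0.37 (SE 0.20, adjusted p = 0.669). Slc22a27, of the same family, read 7.36 ± 0.26 against 6.15 ± 0.46 (1.21, SE 0.27, adjusted p = 0.0466). That call was lost without 8 of the 9 arrays (adjusted p up to 0.211, without TS38), under quantile normalization (0.0520), with a trended prior (0.0644) and with adipocyte markers as a covariate (0.0522). Slc13a1, the sodium-sulfate cotransporter, which was named after its values were seen, overlapped in the arrays (8.55 ± 0.35 against 7.50 ± 0.39, adjusted p = 0.0221; 0.145 without TS38). That is the dimmer of its probe sets, and the brighter read 11.42 ± 0.09 against 11.02 ± 0.16 and was not called (0.41, SE 0.12, adjusted p = 0.181).

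Cyp2d9 and Cyp2d22, cytochromes P450, rose in protein-free kidneys. Of 22 cytochromes P450 and conjugation enzymes, 2 rose, 0 fell and 20 did not pass. The arrays did not overlap in 7, all higher in protein-free, beside 3.74% of all probe sets in either direction. Cyp2d9, a steroid hydroxylase of male mice, read 9.76, 10.17, 9.96, 9.99 and 10.06 in protein-free and 8.96, 9.02, 9.09 and 8.48 in fat-free kidneys (1.10, SE 0.16, adjusted p = 0.000455). Control, at 9.09 ± 0.19, lay at the fat-free level. Cyp2d22 rose from 5.79 ± 0.05 to 6.49 ± 0.18 (0.70, SE 0.12, adjusted p = 0.00579), and the glutathione transferase gene Gstt2 passed the rate but not the fold minimum (0.45, adjusted p = 0.0136). Fmo2, a flavin-containing monooxygenase outside the list and named after its values were seen, rose from 9.92 ± 0.12 to 10.70 ± 0.14 (0.77, SE 0.09, adjusted p = 2.95e-05). The UDP-glucuronosyltransferase gene Ugt2b37, which the naming rule took in and which is also outside the list, went down, from 11.15 ± 0.22 to 10.07 ± 0.29 (-1.08, SE 0.14, adjusted p = 0.000165), and its Control level of 10.70 ± 0.27 lay between the diets.

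Among genes of amino acid use, Bcat1 fell. It encodes the cytosolic aminotransferase of leucine, isoleucine and valine, and read 6.88, 6.63, 6.97, 6.27 and 5.92 in protein-free kidneys. In fat-free kidneys it read 8.36 in TS38 and 7.51 in TS42, with TS37 at 8.03 and TS41 just under it. All protein-free values were lower (-1.44, SE 0.24, adjusted p = 0.00329), and Control, at 7.49 ± 0.42, overlapped with both diets. Of 36 genes of amino acid catabolism it was the 1 that fell, 0 rose and 35 did not pass, with a median of -0.02. Hpd of tyrosine breakdown (0.96, SE 0.22, adjusted p = 0.0550) and Kynu of tryptophan breakdown (1.04, SE 0.25, adjusted p = 0.0633) were the highest and did not pass.

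Of 20 genes of methionine, transsulfuration and vitamin B6, Ethe1 fell, 0 rose and 19 did not pass. Ethe1, a mitochondrial persulfide dioxygenase, read 8.38 ± 0.46 against 9.25 ± 0.33 (-0.87, SE 0.18, adjusted p = 0.0196), with overlapping arrays, and lost its call without 6 of the 9 arrays (adjusted p up to 0.134, without TS38) and in a fit of the 9 arrays alone (0.127). Pdxk, which makes the active form of vitamin B6, rose at a dimmer probe set that was named after its values were seen (5.40 ± 0.15 to 6.02 ± 0.15, adjusted p = 0.0221; 0.107 without TS42), while its brightest gave 0.29 (adjusted p = 0.689). Slc6a6, the taurine transporter, likewise rose at the second of its probe sets by brightness, which read 8.83, 9.55, 9.24, 8.85 and 9.49 in protein-free and 8.07, 8.36, 8.38 and 8.28 in fat-free kidneys (0.92, SE 0.16, adjusted p = 0.00575). Its brightest probe set gave 0.64 (SE 0.16, adjusted p = 0.0932), so that 0 of 25 amino acid transporters were called by the brightest probe set, with 5 higher and 1 lower at an unadjusted p under 0.05.

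The amino acid response by GCN2 and ATF4 had no called gene among 26, with a median of -0.02, 1 higher and 2 lower at an unadjusted p under 0.05. Asns, the asparagine synthetase gene that ATF4 drives, read 4.78, 4.89, 5.74, 5.01 and 5.20 in protein-free and 5.58, 5.39, 5.33 and 4.88 in fat-free kidneys. These overlapped fully (-0.17, SE 0.25, adjusted p = 0.935). Sesn2, an inhibitor of mTOR complex signalling, was the highest of the list with 0.75 (SE 0.18, adjusted p = 0.0659). The glutamine transporter gene Slc38a3 read 6.57 ± 0.40 against 6.58 ± 0.21 (-0.01, SE 0.23, adjusted p = 0.998).

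Pck1, the gluconeogenic enzyme gene, was the 1 of 10 genes of glutamine transport and ammonia production that rose. Its probe set read 3.91, 3.37, 3.41, 3.55 and 3.47 in protein-free and 2.67, 2.64, 2.73 and 2.53 in fat-free kidneys, without overlap (0.90, SE 0.10, adjusted p = 2.95e-05). Most of these values lie under the array medians, whereas Pck1 is known as an abundant messenger of the proximal tubule, and no other probe set carries its symbol alone.

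Fatty acid oxidation and ketogenesis genes had 26 of 28 differences above 0 and a median of 0.24. Of the 28, 1 rose, 0 fell and 27 did not pass. At an unadjusted p under 0.05, 13 were higher and 1 lower (4.08% and 4.95% of all genes). Acot3, a peroxisomal acyl-CoA thioesterase that PPARA controls, read 7.05, 7.56, 6.99, 7.80 and 7.14 in protein-free and 6.66, 6.46, 6.55 and 6.30 in fat-free kidneys (0.81, SE 0.18, adjusted p = 0.0388). Its call was lost without 7 of the 9 arrays (adjusted p up to 0.149, without TS42) and in a fit of the 9 arrays alone (0.0542). Pdk4, the kinase that switches glucose oxidation off, read 8.82, 9.39, 9.09, 9.03 and 8.04 in protein-free and 8.32, 7.88, 7.71 and 7.34 in fat-free kidneys. The array of TS54 overlapped with the fat-free ones (1.06, SE 0.31, adjusted p = 0.183), and Control read 7.27 ± 0.30. The carnitine palmitoyltransferase gene Cpt1a (0.38, SE 0.10, adjusted p = 0.100) and the receptor gene Ppara (0.51, SE 0.14, adjusted p = 0.132) did not overlap between the diets and did not pass.

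Fatty acid synthesis showed no called gene among 19, with a median of -0.01 and 0 in either direction at an unadjusted p under 0.05. Scd1, the desaturase of saturated fatty acids, read 11.13, 10.60, 11.73, 9.81 and 10.31 in protein-free and 11.39, 10.84, 10.88 and 11.20 in fat-free kidneys. The protein-free mice spread over almost 2 log2 units and enclosed the fat-free ones (-0.36, SE 0.28, adjusted p = 0.827). The elongase gene Elovl6 gave 0.06 (SE 0.16, adjusted p = 0.973) and Fads2, a desaturase of polyunsaturated fatty acids, 0.02 (SE 0.17, adjusted p = 0.996). Cholesterol synthesis and uptake had 0 DEPS among 19 genes and a median of -0.18. In this list 5 were lower and 1 higher at an unadjusted p under 0.05 (4.95% and 4.08% of all genes). Nsdhl, a sterol demethylation enzyme, passed the rate but not the fold minimum (-0.51, SE 0.10, adjusted p = 0.0195), Idi1 of the isoprenoid steps read 9.98 ± 0.27 against 10.63 ± 0.28 (-0.65, SE 0.15, adjusted p = 0.0633), and Hmgcs1, the HMG-CoA synthase gene, read 6.41 ± 0.39 against 6.86 ± 0.54 (-0.44, SE 0.21, adjusted p = 0.594).

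The largest fall of any named gene was that of Mfsd2a, a transporter of lysophosphatidylcholine that carries long polyunsaturated fatty acids. It read 6.98, 6.63, 7.12, 5.72 and 5.71 in protein-free and 7.22, 8.32, 9.09 and 8.81 in fat-free kidneys. Both groups were wide, and TS37 lay just above the highest protein-free array (-1.93, SE 0.41, adjusted p = 0.0275). The call was lost without 6 of the 9 arrays (adjusted p up to 0.119, without TS42), with a trended prior (0.0709) and in a fit of the 9 arrays alone (0.0580). Car3, a carbonic anhydrase abundant in muscle and fat, read 9.56, 9.11, 9.75, 9.46 and 9.59 in protein-free and 10.48, 10.87, 10.92 and 10.95 in fat-free kidneys. These groups were far apart (-1.31, SE 0.14, adjusted p = 1.32e-05), and with adipocyte markers as a covariate the value was -1.30 (adjusted p = 4.38e-07). A dimmer Car3 probe set was also called (-1.57, SE 0.31, adjusted p = 0.0140). Its remaining probe sets overlapped between the diets and were not called (-1.20, adjusted p = 0.121, and -1.23, adjusted p = 0.125). Adipocyte markers had a mean signal of 6.37 to 8.17 on protein-free and 6.71 to 7.55 on fat-free arrays.

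Other genes that the naming rule took in lay outside the lists. Higher in protein-free kidneys were Bex1 (6.47 ± 0.27 against 5.10 ± 0.28; 1.36, adjusted p = 7.05e-05), the retinol dehydrogenase family member Rdh16f2 (10.60 ± 0.29 against 9.32 ± 0.24; 1.29, adjusted p = 0.000165) and the heparin-binding growth factor gene Mdk (6.26 ± 0.46 against 5.14 ± 0.20; 1.12, adjusted p = 0.0104, and 0.0548 without TS37). For Mdk the Control level, 5.82 ± 0.23, lay nearer to the protein-free level. Lower were the RNA polymerase III subunit gene Polr3e (8.06 ± 0.24 against 9.29 ± 0.31; -1.23, adjusted p = 0.00793, and 0.0564 without TS38) and Fam25c (6.13 ± 0.41 against 7.20 ± 0.11; -1.07, adjusted p = 0.00244). Noct, which encodes the circadian enzyme nocturnin, read 6.73 ± 0.14 against 7.68 ± 0.26 (-0.95, adjusted p = 0.0275; 0.140 without TS38), and the annexin gene Anxa13 4.42 ± 0.29 against 5.35 ± 0.36 (-0.93, adjusted p = 0.0305; 0.156 without TS42). The calls of Noct and Anxa13 were each lost without 5 of the 9 arrays. A dimmer Polr3e probe set overlapped between the diets and was not called (-1.24, SE 0.39, adjusted p = 0.239). Named after their values were seen were the stress gene Gadd45g (7.05 ± 0.53 against 8.55 ± 0.76; -1.50, adjusted p = 0.0195, and 0.0945 without TS42), whose arrays overlapped, the renal dipeptidase gene Dpep1 (8.16 ± 0.19 against 8.82 ± 0.26; -0.66, adjusted p = 0.0145, and 0.0945 without TS42), the receptor kinase gene Erbb3 (9.39 ± 0.15 against 8.56 ± 0.14; 0.83, adjusted p = 0.00106) and the lipid transfer gene Mttp (6.49 ± 0.08 against 5.85 ± 0.23; 0.65, adjusted p = 0.0269, and 0.118 without TS38). In a fit of the 9 arrays alone Gadd45g (adjusted p = 0.0853) and Dpep1 (0.0584) did not pass. The 2 most changed DEPS of all have no single symbol in the annotation used here. The former read 7.92, 9.34, 8.55, 9.50 and 7.35 in protein-free and 6.04, 5.88, 4.57 and 3.74 in fat-free kidneys (3.48, SE 0.58, adjusted p = 0.00302), and the latter 7.07 ± 0.82 against 3.86 ± 0.74 (3.22, SE 0.38, adjusted p = 3.23e-05).

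The lists written for this comparison thus held few called genes. Of 30 pathway lists, 11 held a called gene and 19 held none. Over all genes, 4.95% were lower and 4.08% higher at an unadjusted p under 0.05, and the median difference was -0.01. Without a call, oxidative phosphorylation had 35 of 37 differences below 0 (median -0.13, 8 lower and 0 higher at an unadjusted p under 0.05), and its 1 gene past the rate, the complex III subunit Uqcrq, differed by -0.28 (adjusted p = 0.0343). Cytosolic chaperones had 16 of 17 below 0 (median -0.23, 5 lower and 0 higher). Androgen-responsive and polyamine genes had 13 of 16 below 0 (median -0.19, 5 lower and 2 higher). Cytosolic ribosomal protein genes had 39 of 46 above 0, with a median of only 0.07 and 0 of either direction at an unadjusted p under 0.05. Over 17 alternative settings, those that leave out an array included, 27 of the 42 list medians (marker lists included) kept their sign and 15 turned. Those 15 had medians within 0.09 of 0, and they include fatty acid synthesis, the GCN2 and ATF4 response, phosphate and vitamin D handling, the insulin and IGF axis, the circadian clock and the adipocyte markers.

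**Figure D3:**
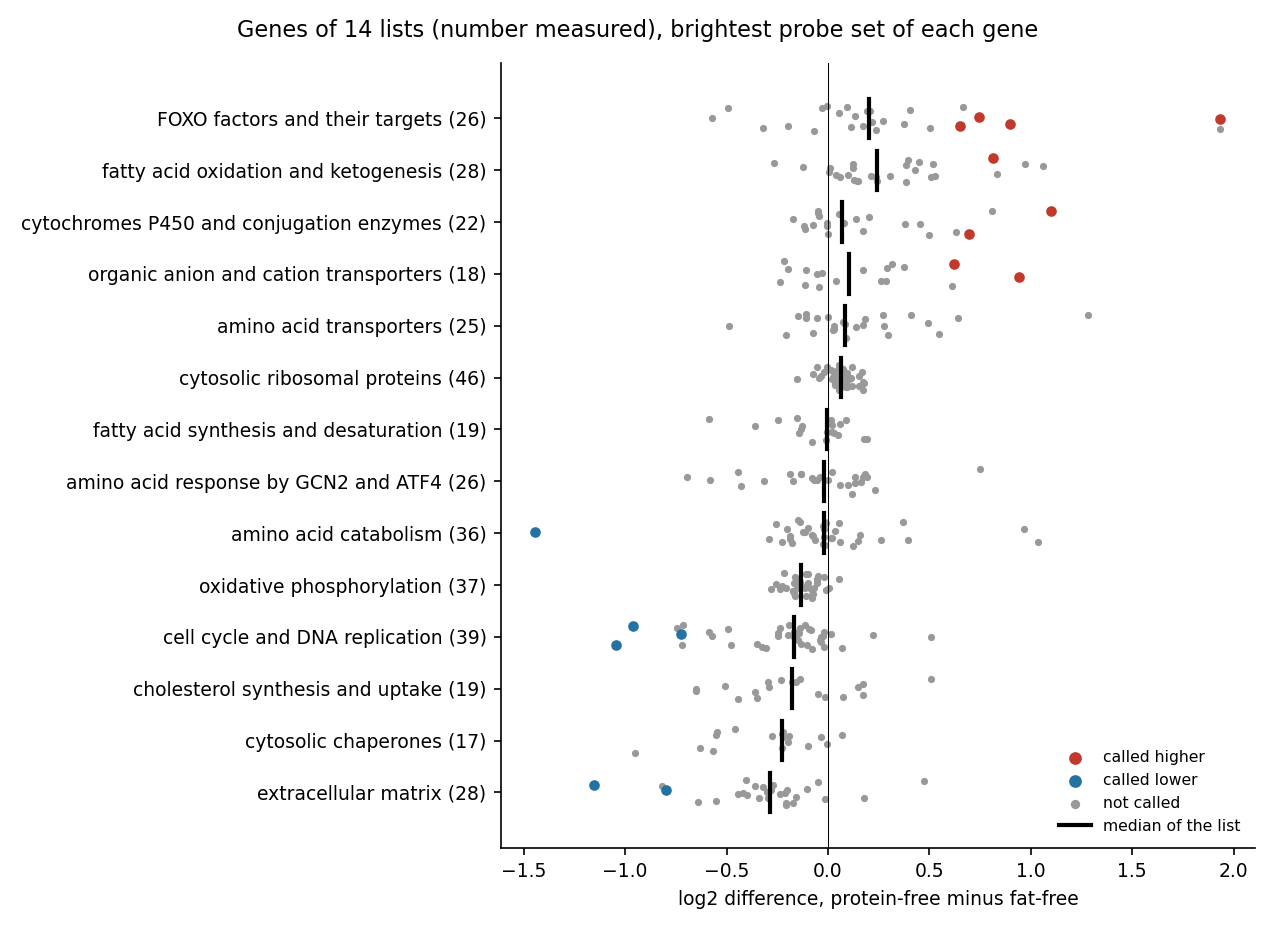
Log2 difference (protein-free minus fat-free, x axis) of each measured gene of 14 of the lists by its brightest probe set, with called genes in red (higher) and blue (lower), other genes in grey and a bar at the list's median. Medians run from -0.29 for extracellular matrix to 0.24 for fatty acid oxidation, and most genes of every list are not called.

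Tubule markers were bright, as befits the labelled tissue. The proximal tubule and thick ascending limb genes read 11.27 to 11.49 and 10.31 to 10.79 in mean signal on all 9 arrays. Markers of red blood cell precursors had a mean signal of 8.40 to 8.91 on protein-free and 9.23 to 9.50 on fat-free arrays (2-sided exact permutation test, p = 0.00794, the smallest that 5 against 4 arrays allow, and adjusted p = 0.111 over 14 measures). Of these 3 genes Alas2, the first enzyme of heme synthesis in red cells, read 4.32, 4.16, 3.70, 3.60 and 4.08 in protein-free and 4.93, 5.45, 4.71 and 4.95 in fat-free kidneys (-1.04, SE 0.24, adjusted p = 0.0463). These did not overlap, but the call was lost without 8 of the 9 arrays (adjusted p up to 0.253, without TS38). Hba-a1, an alpha globin gene, read 11.99 ± 0.22 against 12.73 ± 0.11 (-0.74, adjusted p = 0.185). Their mean signal was lower on every protein-free than on every fat-free array, as were Cdk1, Mki67 and H3c1, and its part in those results was not tested.

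Intercalated cell markers had a mean signal of 7.76 to 8.09 on protein-free and 8.09 to 8.17 on fat-free arrays (p = 0.0159 by the same exact permutation test, adjusted p = 0.111). Their anion exchanger gene Slc4a1, which red cells also express, passed the rate but not the fold minimum (-0.46, SE 0.11, adjusted p = 0.0479). The other 10 marker lists had adjusted p values of 0.250 or more and 0 called genes. Control probe sets at both ends of Gapdh report on RNA integrity, and their 3′ signal minus their 5′ signal, which grows as RNA degrades, was 2.19, 0.82, 1.41, 1.56 and 0.74 on protein-free and 1.78, 0.89, 1.17 and 1.23 on fat-free arrays. Both groups covered about the same range (difference 0.08, exact permutation test, p = 0.825), while Control arrays lay lower, at 0.82 ± 0.14. With this measure as a covariate, 134 DEPS were called, among them 107 of the 109.

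**Figure D4:**
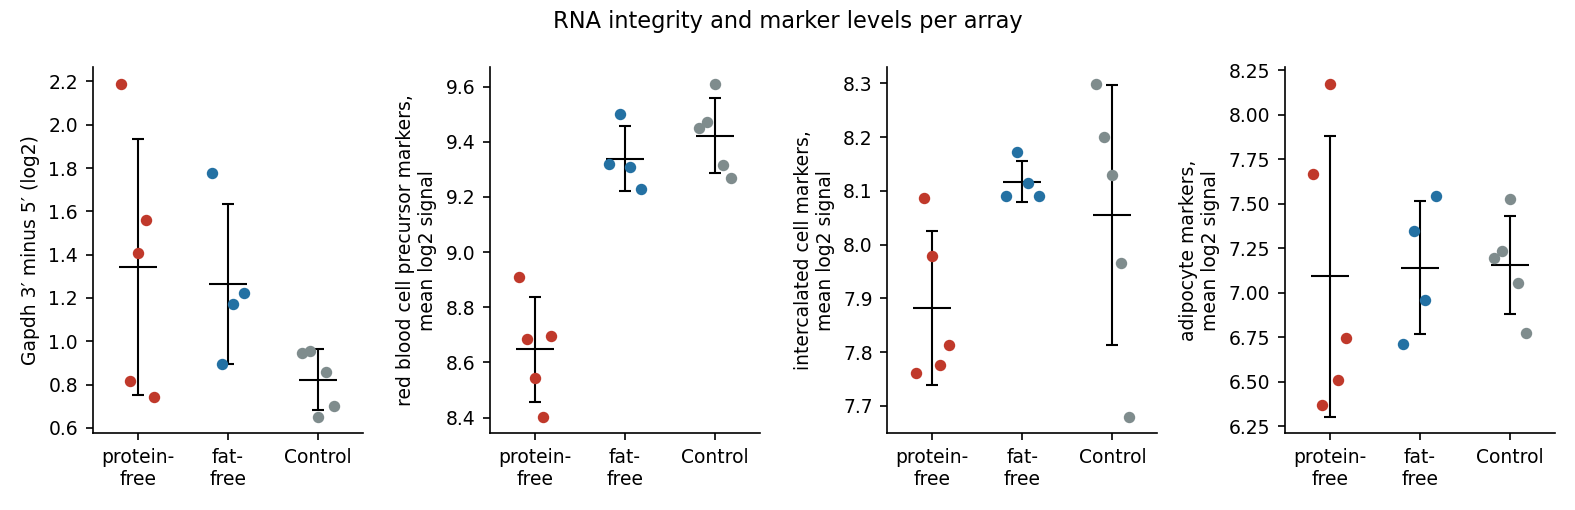
The Gapdh control probe sets' 3′ signal minus 5′ signal (log2) and the mean log2 signal of 3 marker lists (y axes) on each protein-free (red, n = 5), fat-free (blue, n = 4) and Control (grey, n = 5) array, with a line at the mean and bars of 1 SD. Red blood cell precursor markers do not overlap between protein-free (8.40 to 8.91) and fat-free (9.23 to 9.50), whereas Gapdh and adipocyte values do.

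The Control diet lay near the fat-free diet for most genes that set the diets apart. Its mean was nearer to the fat-free mean in 103 of the 109 DEPS and nearer to the protein-free mean in 6, and it lay between the diets in 63 and beyond the fat-free mean in 46. The median distance of the Control mean from the fat-free mean was 0.14 over these DEPS and that from the protein-free mean 0.84, against 0.08 and 0.09 over all probe sets. Both distances use the same Control arrays, and they are given as a description. The 6 exceptions include Mdk, Noct and Fam25c from above and a probe set without a single symbol. They also include Fxyd4, a sodium pump regulator, and Bex4, both named after their values were seen. Fxyd4 read 8.98 ± 0.14 in protein-free, 9.65 ± 0.41 in fat-free and 9.16 ± 0.15 in Control kidneys. Bex4 read 6.83 ± 0.20, 6.21 ± 0.22 and 6.58 ± 0.17 in the same order. Against Control, Cyp24a1 gave 2.26 for protein-free and -0.68 for fat-free, Cdk1 -1.30 and -0.26, Bcat1 -0.96 and 0.48, and Ugt2b37 -0.63 and 0.45.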

How the data were processed

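Kidney RNA was hybridized by the authors to Affymetrix HT MG-430 PM arrays, 1 per mouse. The deposited log2 values came from RMA as run by the authors, which subtracts background, equalizes the arrays by quantiles and summarizes probes by median polish (version not given in the sources used here). It was run apart for the fasting experiment, which was left out. RMA shrinks differences of dim probe sets. The 27 other arrays were fitted in 1 model with limma 3.58.1 (R 4.3.3), so that 6 groups share the estimate of spread, and the contrast was protein-free minus fat-free. Calls needed a Benjamini-Hochberg adjusted p under 0.05 over 45141 probe sets and a 1.5-fold change. The annotation gave 1 symbol to 28898 probe sets (17097 genes), several to 551 and none to 15692. Named genes were the 12 highest and 12 lowest of the called, non-overlapping genes, up to 4 called genes of each list, and a fixed set whatever its result. Many of them have further probe sets that were not called, and these are given for some genes only. Within 30 pathway and 12 marker lists a gene stood by its brightest probe set, and the lists were only counted. Marker means and RNA integrity were compared with a 2-sided exact permutation test over 126 splits. The fits were tested on simulated data. The genes, lists and comparison were chosen with earlier results of these data known. Labels do not say which mice shared a cage, so p-values measure the spread between these mice. The number of arrays limits the precision. Promoters came from RefSeq (GRCm38.p6), and Python 3.11.15, numpy 2.4.6 and matplotlib 3.10.9 were used.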

Additional observations from a re-analysis of the deposited data

Results flagged for a closer look

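In 7 of 170 groups of 4 or 5 arrays, 1 array stood apart from the rest by Dixon's ratio, its gap to the next array divided by the range of the group. Chance gives about 1 in 20 such groups when they are independent. These groups share arrays, and many come from genes named because they were called, so the 7 cannot be judged by that rate. Among called genes, Cdk1 had the highest ratio, 0.968, with fat-free mouse TS38 at 4.79 and the other 3 at 4.06 to 4.09. For Cbx7 the ratio was 0.889, with TS42 at 6.54 above fat-free arrays of 6.08 to 6.13. For Slc22a8 it was 0.753, with protein-free mouse TS54 at 7.63 below 8.09 to 8.24, and for Polr3e 0.761, with TS51 at 8.47 above 7.90 to 8.04. The array that stands apart lies towards the other diet in Cbx7, Slc22a8 and Polr3e and away from it in Cdk1. Among genes that were not called, the ratio was 0.776 for Foxo3 (TS49 at 9.66, others 9.23 to 9.33), 0.895 for the sterol gene Nsdhl (TS52 at 7.52, others 7.92 to 7.97) and 0.862 for Id4, an inhibitor of basic helix-loop-helix factors (TS38 at 8.18, others 8.68 to 8.76).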

How the results depend on the processing

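Between 106 and 155 DEPS were called under 9 of the alternatives, namely 114 with a trended and robust prior, 106 after another quantile normalization, 110 with array medians subtracted, 123 among the brighter probe sets, 155 without the fold minimum, 154 with array weights, 122 in a fit of the 9 arrays alone, which kept 82 of the 109, and 134 and 113 with the Gapdh and the adipocyte covariate. limma's treat against a fold of 1.2 called 23, of which 19 were higher and 4 lower, as it tests a stricter hypothesis. With 1 probe set per gene, which tests fewer probe sets, 81 were called and 41 were higher. Leaving out 1 array gave 47 to 98 DEPS, 31 to 65 higher and 16 to 34 lower. Fewest were found without fat-free mouse TS38 (47, all among the 109), and the lower DEPS also fell past 1.5-fold without TS42 (24), TS52 (21), TS37 (29) and TS50 (29). Why TS38 counts for most was not tested. Of 52 named calls, 0 turned direction, 25 passed without whichever array was left out and 27 were lost without at least 1. The Gapdh difference between the diets lay between -0.13 and 0.25 without 1 array and was 0.18 by the beta-actin control probe sets, and in 0 of these settings did it pass. No paired analysis was possible because the labels give no number or cage that ties protein-free to fat-free mice. Signals near the array medians, such as those of the cell cycle genes, leave small differences undetected.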
